A study of Homo sapiens with 16 samples.

Results

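Aminoacyl-tRNA synthetases join each amino acid to its tRNA before the ribosome can use it. Of the 26485 genes listed in the total RNA libraries, 39 were described here. They were chosen by name: 18 genes for cytosolic synthetase subunits, 16 for mitochondrial enzymes, GARS and KARS, which each supply both compartments from 1 gene, the threonyl paralog TARSL2, and the scaffold proteins AIMP1 and AIMP2. The libraries use older symbols for 19 of them (IARS for the present IARS1, for instance), and these are kept below.

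The cells were of the line MDA-MB-231, from a human breast cancer of the triple-negative type, and their source is labelled as a xenograft cell line. Every library came from cells with CRISPRi, a repressor sent to a chosen gene by a guide RNA, together with an expression construct. The 4 conditions were the eGFP guide with the control construct (control), the eGFP guide with the tRNA-Ile-UAU construct, the tRNA-Ile-GAU guide with the control construct (knockdown), and the tRNA-Ile-GAU guide with the tRNA-Ile-UAU construct (double modulation). Each was measured as ribosome-protected fragments, called footprints, and as total RNA, in 2 libraries per condition and assay, 16 libraries in all. The labels give no treatment, name no clone and do not say that the 2 libraries of a group are separate cultures, so what the p-values weigh is the spread between libraries that may be technical repeats.

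Isoleucyl-tRNA synthetase charges every isoleucine tRNA of its compartment, whatever the anticodon: IARS in the cytosol and IARS2 in mitochondria. Several cytosolic synthetases (EPRS, IARS, LARS, MARS, QARS, KARS, RARS and DARS) sit in 1 large complex held together by AIMP1, AIMP2 and EEF1E1. When uncharged tRNA builds up, the kinase GCN2 (EIF2AK4) slows initiation and raises translation of the transcription factor ATF4, which binds amino acid response elements in the promoters of transporters, amino acid enzymes and many cytosolic synthetases.

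Because that element is the known route from tRNA charging to synthetase transcription, its core was searched in the RefSeq promoters of GRCh38.p14 (250 bases before to 50 bases after an annotated start). The core was taken as TGATGCAA or its reverse complement TTGCATCA, and the choice was made after values of these genes had been seen. Of the 39 genes, 32 had a promoter in the table, and 6 of these 32 (18.8%) held the core, against 295 of 27305 genes in the table (1.08%). The 30-base windows below run 5′ to 3′ on the strand of each gene, with the core in capitals. The core was searched for letter by letter, so its likeness is given by the search, and the windows show the flanks around it.
TARS, chr5:33440956-33440985, plus strand: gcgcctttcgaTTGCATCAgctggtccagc
IARS, chr9:92293692-92293721, minus strand: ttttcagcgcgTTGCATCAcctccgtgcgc
MARS, chr12:57488053-57488082, plus strand: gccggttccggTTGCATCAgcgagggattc
CARS, chr11:3057407-3057436, minus strand: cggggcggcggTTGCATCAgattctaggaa
AARS, chr16:70289675-70289704, minus strand: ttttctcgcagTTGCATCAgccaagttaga
NARS, chr18:57621804-57621833, minus strand: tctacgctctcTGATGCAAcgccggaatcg
In 5 of the 6 the core reads TTGCATCA on the gene's strand, and in NARS it reads TGATGCAA. It lies within 21 bases of an annotated start in TARS, IARS, MARS, CARS and NARS, and 187 to 180 bases before the start in AARS. A match of letters is not shown to be a bound site here.

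Depth was 358340 to 938909 counts on genes per footprint library and 2512247 to 5446599 per total RNA library. In footprints it was 358340 to 607919 under the eGFP guide and 639320 to 938909 under the tRNA-Ile-GAU guide, which do not overlap, so footprint calls between guides were also computed after thinning to the shallowest library, with values given for TARS and where thinning ended a call. All 39 genes had at least 1 count in every library. TARSL2, with 1 to 5 footprint counts per library, missed the filter on low counts, which left 38 of the 39 testable in footprints and all 39 in total RNA. The 2 total RNA libraries of the double modulation correlated least of all pairs of that assay (r = 0.958 across genes, against 0.983 to 0.986 for the others), and values without either one are given where they matter. Levels are counts scaled to a common total of counts on genes (CPM). All 6 MDA-MB-231 markers examined (VIM, CD44, AXL, EGFR, CAV1 and SNAI2) had counts. CAV1, on chromosome 7, had an edgeR adjusted p under 0.05 in a comparison of conditions. In total RNA the markers summed to 4020 to 4339 CPM under the eGFP guide and 4150 to 4280 CPM under the other. Their summed footprint level was 16795 to 18168 CPM under the eGFP guide and 15559 to 18002 CPM under the tRNA-Ile-GAU guide. Summed footprints of other marker lists under that guide were 47.1 to 62.4 CPM for luminal epithelium, 129.8 to 171 CPM for immune cells (2 of 4 genes with counts, the T cell marker CD3E at 0), 6.26 to 12.1 CPM for endothelium and 21.7 to 27.7 CPM for fibroblasts. Under the eGFP guide these 4 lists ran from 2.79 to 172 CPM, and each overlapped its range under the other guide except luminal epithelium, which was 62.5 to 77.6 CPM. Levels were not divided by coding length, so no order between genes is read from them. The cultures were read in bulk, so a lower level per cell and a smaller share of cells cannot be told apart. Nor can an effect of the tRNA, of its guide and of the cell population under that guide be told apart in this design.

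IARS, on chromosome 9 (92210207 to 92293697), passed in none of the comparisons in either assay. Its footprints were 571 and 536 CPM in the control libraries, 541 and 574 CPM with the tRNA-Ile-UAU construct, 604 and 539 CPM in the knockdown and 653 and 568 CPM in the double modulation. The groups overlapped, and the replicates of 1 group lay as far apart as the groups. Against control, the footprint log2 fold change of IARS was 0.04 ± 0.12 (SE) in the knockdown (edgeR quasi-likelihood test with Benjamini-Hochberg adjustment over all genes, adjusted p = 0.952), 0.01 ± 0.12 with the construct (adjusted p = 1.00) and 0.13 ± 0.12 in the double modulation (adjusted p = 0.746). IARS total RNA was 731 and 700.0 CPM in control, 757 and 701 CPM with the construct, 685 and 703 CPM in the knockdown, and 695 and 766 CPM in the double modulation. Its total RNA log2 fold changes were -0.04 ± 0.11, 0.04 ± 0.11 and 0.03 ± 0.11 for the knockdown, the construct and the double modulation. These values were about as large as their standard errors or smaller, and leaving out single libraries turned the sign of several of them. Of all 39 genes 0 passed in total RNA of the knockdown by edgeR or DESeq2, and 0.0256% of all genes tested passed there by edgeR. An unadjusted p under 0.05 was reached by 4 of the 39 and by 813 of all 11720 genes.

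IARS2, on chromosome 1 (220094132 to 220148041), passed in no comparison of all libraries, but its total RNA was lower in each library with the tRNA-Ile-GAU guide than in any library with the eGFP guide. Total RNA of IARS2 was 343 and 332 CPM in control, 309.6 and 342 CPM with the construct, 301 and 306 CPM in the knockdown, and 250.4 and 279 CPM in the double modulation. The 2 double modulation libraries were the lowest of the 8. In the double modulation the total RNA log2 fold change was -0.35 ± 0.11 (edgeR adjusted p = 0.365), and by guide, with both constructs pooled, it was -0.23 ± 0.07 (adjusted p = 0.259). Of 14 and 13 alternatives, each passed in 1, without double modulation replicate 2 (-0.47, adjusted p = 0.00159, and -0.29, adjusted p = 0.00204), a setting in which 15.7 and 15.5% of all genes passed. Without replicate 1 the values were -0.25 (adjusted p = 0.194) and -0.18 (adjusted p = 0.116). Footprints of IARS2 did not show this separation: they were 217 and 173 CPM in control, 201 and 219 CPM with the construct, 211 and 159 CPM in the knockdown, and 204 and 178 CPM in the double modulation. By guide the footprint log2 fold change was -0.12 ± 0.11 (adjusted p = 0.719), and the difference between footprints and total RNA was 0.12 ± 0.15 (adjusted p = 0.904).

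**Figure D1:**
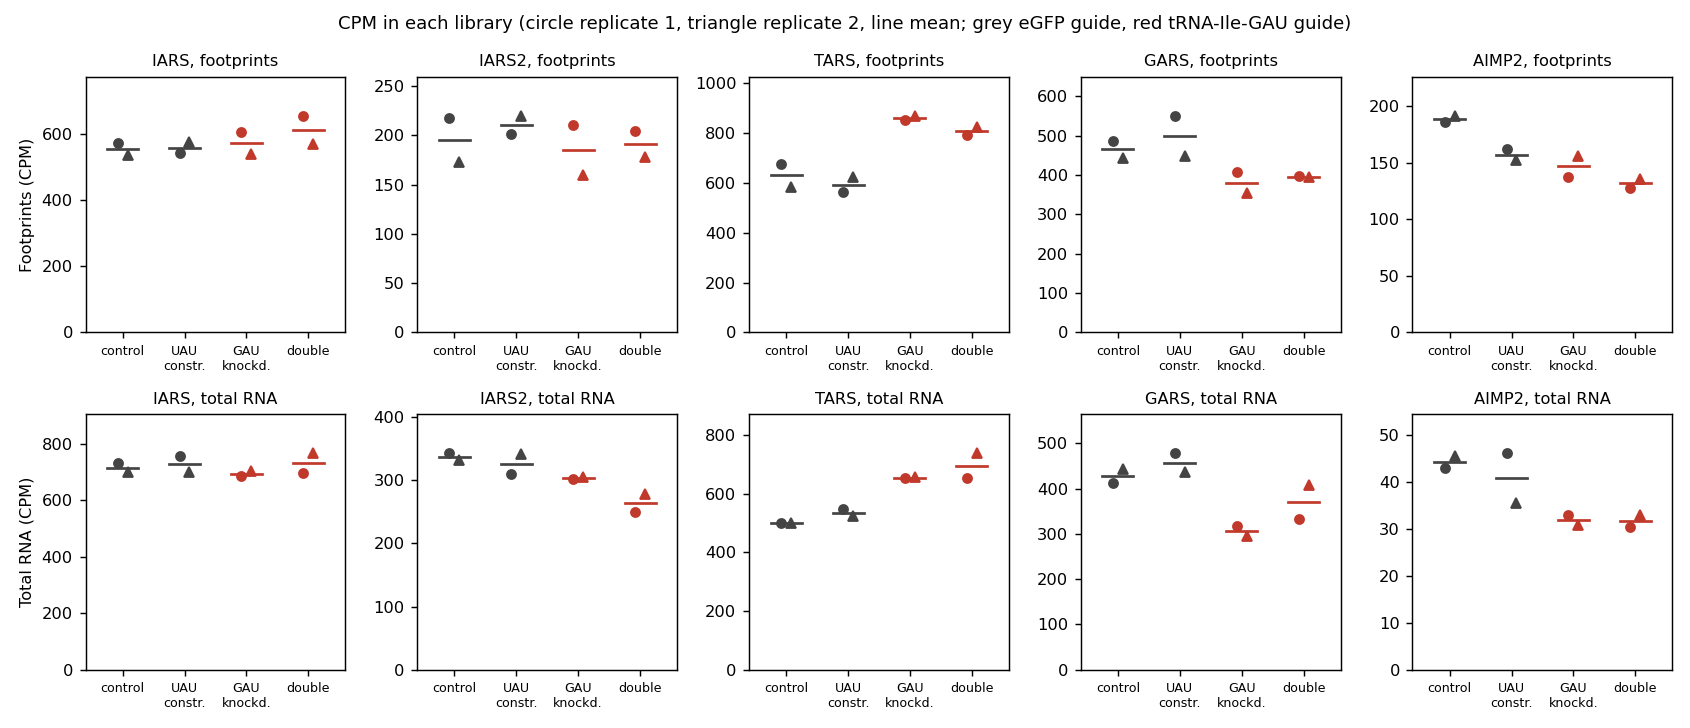
Levels (CPM, linear axis from 0) of IARS, IARS2, TARS, GARS and AIMP2 in each footprint library (top) and total RNA library (bottom), with circles for replicate 1, triangles for replicate 2 and lines for the mean of 2. TARS is higher in all 4 libraries with the tRNA-Ile-GAU guide (red) in both assays, GARS is lower in all 4, and IARS overlaps throughout.

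TARS, the cytosolic threonyl-tRNA synthetase, rose with the tRNA-Ile-GAU guide and was the 1 synthetase gene of 38 whose footprints passed in the knockdown. Across all genes 1.11% passed in that comparison (0.454% higher and 0.651% lower), so 1 of 38 is near the background. TARS footprints were 674 and 584 CPM in control and 564 and 622 CPM with the construct. They were 852 and 868 CPM in the knockdown, and 790.3 and 823 CPM in the double modulation. All 4 libraries with the tRNA-Ile-GAU guide lay above all 4 with the eGFP guide, with a mean of 833 ± 34.0 against 611 ± 48.7 CPM (SD, n = 4).

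TARS footprints were 1.36-fold higher in the knockdown than in control by edgeR's quasi-likelihood test (log2 fold change 0.44 ± 0.11, adjusted p = 0.0203). The double modulation, against the same control libraries, gave 0.34 ± 0.11 (adjusted p = 0.103). With constructs pooled the guide difference was 1.35-fold (0.43 ± 0.08, adjusted p = 7.68e-05). This pooled call held in all 14 alternative settings tried, including footprints thinned to the shallowest library (0.39, adjusted p = 0.00320). The call in the knockdown alone was lost by DESeq2 (0.44, adjusted p = 0.0532), after thinning (0.35, adjusted p = 0.279), without control replicate 1 (0.54, adjusted p = 0.0820) or 2 (0.34, adjusted p = 0.480), and without knockdown replicate 1 (0.44, adjusted p = 0.113) or 2 (0.43, adjusted p = 0.127).

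Total RNA of TARS separated the guides in the same way. It was 501 and 499 CPM in control, 548 and 523 CPM with the construct, 653 and 656 CPM in the knockdown, and 651 and 737 CPM in the double modulation. Again no library of one guide reached the range of the other. The pooled guide difference in total RNA was 0.38 ± 0.08 on the log2 scale, which just missed the threshold (edgeR adjusted p = 0.0537, with 1.08% of all genes passing). It passed by DESeq2 (0.38, adjusted p = 0.00104), with no filter on low counts (0.38, adjusted p = 0.00138), and when double modulation replicate 1 (0.44, adjusted p = 2.58e-05) or 2 (0.31, adjusted p = 0.000507) was left out. These were 4 of 13 alternatives, and 1.35, 2.64, 4.64 and 15.5% of all genes passed in them. In the other 9 it stayed above the threshold, up to an adjusted p of 0.305. Footprints relative to total RNA differed by 0.07 ± 0.11 for TARS by guide (adjusted p = 0.927).

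TARS lies on chromosome 5 (33440696 to 33468091). Within 10 Mb of it, a window chosen after the values were seen, 29 other genes were tested in footprints. Their median log2 fold change by guide was 0.09 and 0 of them passed. In total RNA the 43 tested neighbours had a median of -0.05, and again 0 passed. The mitochondrial threonyl enzyme TARS2 had a footprint log2 fold change by guide of -0.18 ± 0.21 (adjusted p = 0.784) and a total RNA value of 0.17 ± 0.18 (adjusted p = 0.789). Total RNA of the paralog TARSL2 was 3.58 to 8.50 CPM with the eGFP guide and 4.92 to 8.58 CPM with the tRNA-Ile-GAU guide, which overlap.

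GARS, the glycyl-tRNA synthetase that serves both cytosol and mitochondria, was the 1 gene of 38 whose footprints fell with the guide. With TARS it made 2 of 38 genes passing by guide, against 2.68% of all genes (0.688% higher and 1.99% lower). Its footprints were 487 and 444 CPM in control, 549.8 and 449 CPM with the construct, 406 and 355 CPM in the knockdown, and 396 and 396 CPM in the double modulation. The highest library with the tRNA-Ile-GAU guide (406 CPM) was under the lowest with the eGFP guide (444 CPM). The log2 fold change by guide was -0.31 ± 0.09 (edgeR adjusted p = 0.0271), a 1.24-fold lower level. The direction held in every alternative, and the call was lost by DESeq2 (-0.32, adjusted p = 0.265), with no filter (-0.30, adjusted p = 0.0520) and after thinning (-0.28, adjusted p = 0.223).
The call was also lost without control replicate 1 (-0.28, adjusted p = 0.185) or 2 (-0.35, adjusted p = 0.0595), construct replicate 1 (-0.25, adjusted p = 0.280), knockdown replicate 2 (-0.26, adjusted p = 0.160) or double modulation replicate 1 (-0.31, adjusted p = 0.0558).

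Total RNA of GARS was 413 and 443 CPM in control, 478 and 438 CPM with the construct, 318 and 296 CPM in the knockdown, and 333 and 409 CPM in the double modulation. The ranges of the guides did not overlap here either, although double modulation replicate 2 (409 CPM) was little under the lowest control library (413 CPM). The log2 fold change by guide was -0.40 ± 0.09 (edgeR adjusted p = 0.0975), and it passed by DESeq2 (-0.40, adjusted p = 0.00866), with no filter on low counts (-0.40, adjusted p = 0.000954) and without double modulation replicate 1 (-0.31, adjusted p = 0.00348) or 2 (-0.50, adjusted p = 1.16e-05). These are the same 4 alternatives as for TARS, and the other 9 gave an adjusted p of up to 0.442.

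AIMP2, a scaffold of the multisynthetase complex, had lower values with the guide as well, though none passed. Its footprints were 186 and 191 CPM in control, 162 and 153 CPM with the construct, 138 and 156 CPM in the knockdown, and 128 and 136 CPM in the double modulation. In footprints, knockdown replicate 2 lay inside the range of the eGFP guide. Total RNA of AIMP2 was 43.0 and 45.5 CPM in control, 46.0 and 35.4 CPM with the construct, 32.8 and 30.7 CPM in the knockdown, and 30.3 and 32.8 CPM in the double modulation, with no overlap between guides. In footprints the double modulation gave -0.54 ± 0.16 (edgeR adjusted p = 0.0583). It passed in only 2 of 14 alternatives. These were scaling factors from all chromosomes but 7 (-0.56, edgeR adjusted p = 0.0446) and the replicate block (-0.54, edgeR adjusted p = 0.0370). Of all genes 2.11 and 2.57% passed in these 2 settings. The other scaffold, AIMP1, on chromosome 4, had a footprint log2 fold change by guide of 0.03 ± 0.14 (adjusted p = 0.957).

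GARS (30594735 to 30634033) and AIMP2 (6009272 to 6023834) are the 2 genes of the 39 on chromosome 7, and that chromosome's genes were lower with the guide as a whole. Of 372 tested genes there, 343 had a negative footprint log2 fold change by guide, with a median of -0.39 and quartiles of -0.57 and -0.24. GARS at -0.31 and AIMP2 at -0.32 lay between those quartiles, and 235 and 230 of the 372 genes had a value below theirs. In total RNA the 554 genes had a median of -0.37, with 517 negative and quartiles of -0.49 and -0.22, and the values of GARS (-0.40) and AIMP2 (-0.43) lay between these too. The part of the chromosome-wide shift in either gene's value was not tested. Without these 2 genes, the footprint median by guide of the other 36 was 0.08, with 25 positive.

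Counting libraries rather than tests gave few others. By guide, 2 of 38 genes were higher in footprints with no overlap between the 4 and 4 libraries (TARS and YARS2, against 3.28% of all genes), and 1 was lower (GARS, against 3.94%). In total RNA 1 of 39 was higher (TARS, against 3.37% of all genes) and 3 were lower (AIMP2, GARS and IARS2, against 5.33%). YARS2, the mitochondrial tyrosyl-tRNA synthetase, had footprints of 69.1 and 66.0 CPM in control, 44.7 and 68.6 CPM with the construct, 73.0 and 91.8 CPM in the knockdown, and 84.1 and 97.0 CPM in the double modulation. Its log2 fold change by guide was 0.43 ± 0.16 (edgeR adjusted p = 0.157), as large as that of TARS but with a wider error. Total RNA of YARS2 differed by 0.03 ± 0.16 (adjusted p = 0.965).

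**Figure D2:**
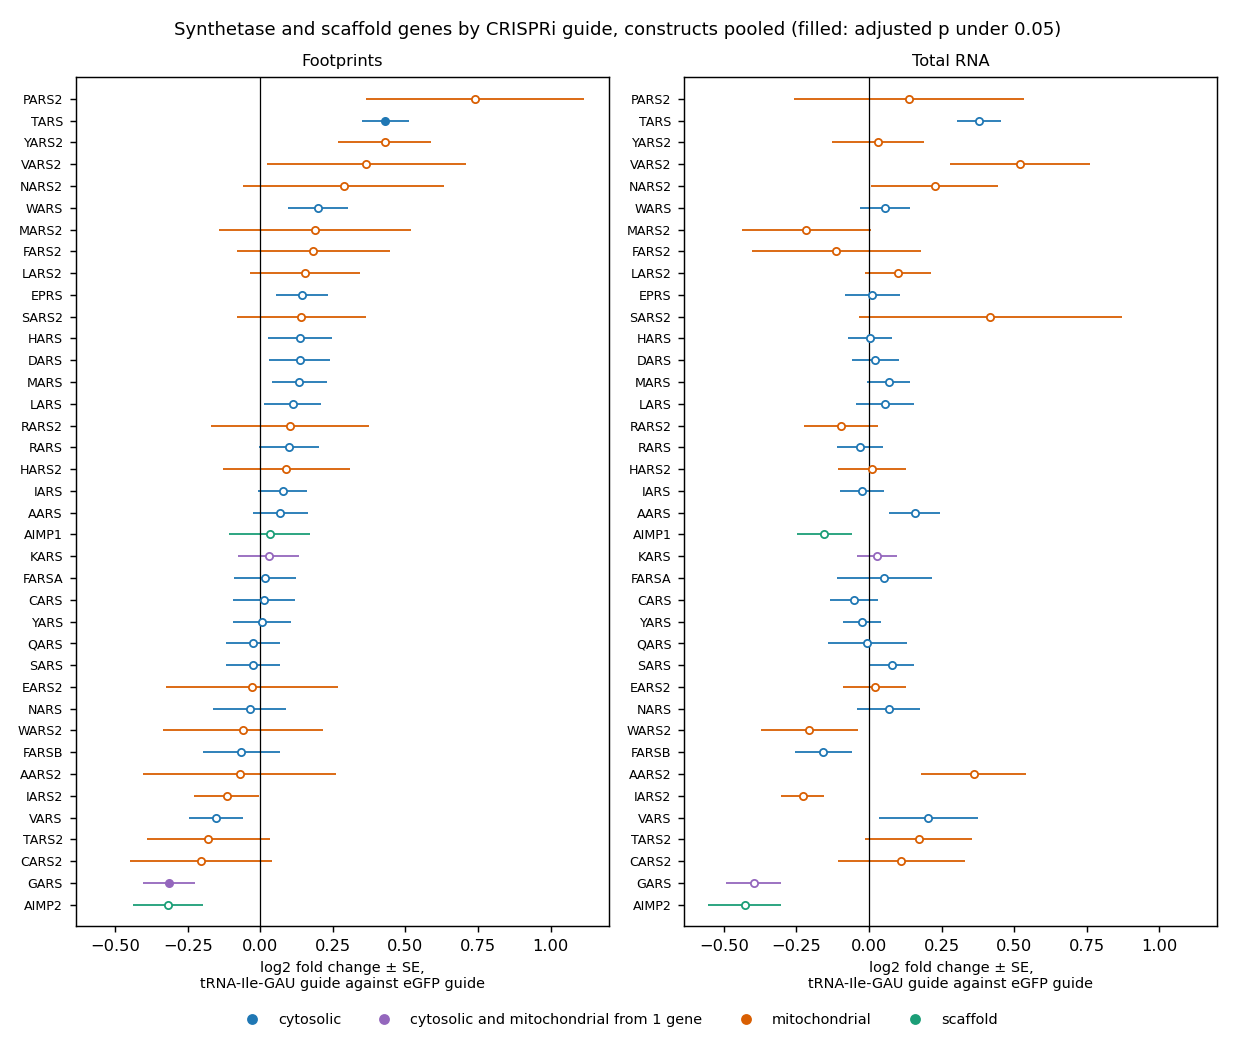
Log2 fold change ± SE between the tRNA-Ile-GAU and eGFP guides, constructs pooled (4 libraries each), for the 38 genes tested in footprints (left) and the same genes in total RNA (right), ordered by the footprint value and coloured by class. Filled points passed at an adjusted p under 0.05: TARS (0.43) and GARS (-0.31) in footprints and none in total RNA.

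The cytosolic synthetases other than TARS stayed close to 0 by guide. Of the 18 cytosolic genes, 13 had a positive footprint value and 5 a negative one, with a median of 0.07, and TARS was the 1 that passed. Valyl-tRNA synthetase (VARS) had the lowest value, -0.15 ± 0.09 (edgeR adjusted p = 0.488). Summed footprints of the 18 genes were 5486 to 5597 CPM with the eGFP guide and 5819 to 6266 CPM with the tRNA-Ile-GAU guide, which do not overlap. Without TARS the sums were 4812 to 4995 and 4968 to 5443 CPM, which do. The second range held 4968 and 5012 CPM in the knockdown and 5301 and 5443 CPM in the double modulation, which was above every other library. These sums were not tested. All 39 genes together took 0.711 to 0.721% of footprint counts with the eGFP guide and 0.732 to 0.786% with the tRNA-Ile-GAU guide. In total RNA these shares were 0.546 to 0.594% and 0.560 to 0.613%, and they overlapped. Without TARS, GARS and AIMP2, summed footprints of the other 36 genes were 5813 to 5990 and 5922 to 6504 CPM, which overlap. Here too the double modulation libraries (6324 and 6504 CPM) were above every other library.

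In the complex, 9 of the 11 genes (EEF1E1 included) had a positive footprint value by guide, with a median of 0.10, and 0 passed by edgeR. Among the 11, 1 had an unadjusted p under 0.05, beside 1089 of all 8143 genes. EPRS, the fused glutamyl and prolyl enzyme, had footprints of 409 to 436 CPM with the eGFP guide and 435 to 522 CPM with the tRNA-Ile-GAU guide (0.14 ± 0.09, adjusted p = 0.507). Those ranges touch. LARS, the leucyl enzyme, overlapped more, at 259.9 to 340.5 and 285 to 349 CPM (0.11 ± 0.10, adjusted p = 0.684). KARS, the lysyl enzyme, was 193 to 250.3 and 209.6 to 242 CPM (0.03 ± 0.11, adjusted p = 0.948).

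In the double modulation against control, 27 of 38 genes had a positive footprint value and the median was 0.12, against 0.01 over all genes tested. By edgeR 0 of 38 passed, and DESeq2 also called 0. With edgeR, 5 of the 38 and 972 of all 8143 genes had an unadjusted p under 0.05. Of all genes 1.93% passed there, 0.528% higher and 1.4% lower. Positive values made up 15 of 18 cytosolic genes (median 0.12, from -0.04 for RARS to 0.34 for TARS) and 11 of 16 mitochondrial genes (median 0.13). In total RNA 30 of 39 were positive, with a median of 0.12 against 0.03 over all genes. Of the 39, 0 passed by edgeR, against 0.0683% of all genes. An unadjusted p under 0.05 belonged to 4 of them, beside 893 of all 11720 genes. DESeq2 called 1 of the 39 there, TARS (0.47, adjusted p = 0.0133).

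The 6 genes with the response element core were all positive in footprints of the double modulation, from 0.13 to 0.34 with a median of 0.25, and 0 of them passed by edgeR. The 26 genes without these exact letters in the searched window had a median of 0.07 there, with 18 positive. Other forms of the element and sites outside the window were not searched. All 6 genes with the core are cytosolic, while the 26 include mitochondrial enzymes and the chromosome 7 genes GARS and AIMP2. The contrast was not separated from class or chromosome. In the knockdown alone the same 6 genes ran from -0.23 (NARS) to 0.44 (TARS), with a median of 0.03 and 4 positive. By guide 5 of 6 were positive, with a median of 0.07 against 0.06 for the 26, and TARS was the 1 that passed. In total RNA of the double modulation all 6 were positive again (0.02 to 0.47, median 0.17), beside 17 of 26 for the others (median 0.06). With the construct alone all 6 were positive in total RNA too (median 0.12), beside 18 of 26 (median 0.07). In footprints with the construct alone 3 of the 6 were positive. These comparisons share the control libraries, and the core was chosen with values known, so they are a description.

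NARS, the cytosolic asparaginyl enzyme, was singled out from the 6 after its values were seen. Its footprints were 127 and 134 CPM in control, 126 and 161 CPM with the construct, 102 and 121 CPM in the knockdown, and 167 and 163 CPM in the double modulation. Both double modulation libraries lay above the other 6. With guides pooled, the construct difference in NARS footprints was 0.36 ± 0.13 (edgeR adjusted p = 0.289). There 0.43% of all genes passed and 0 of the 38 did. Among the 38, 3 had an unadjusted p under 0.05, beside 616 of all 8143 genes. Total RNA of NARS was 129 to 169.5 CPM across the 8 libraries and gave 0.09 ± 0.11 (adjusted p = 1.00).

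**Figure D3:**
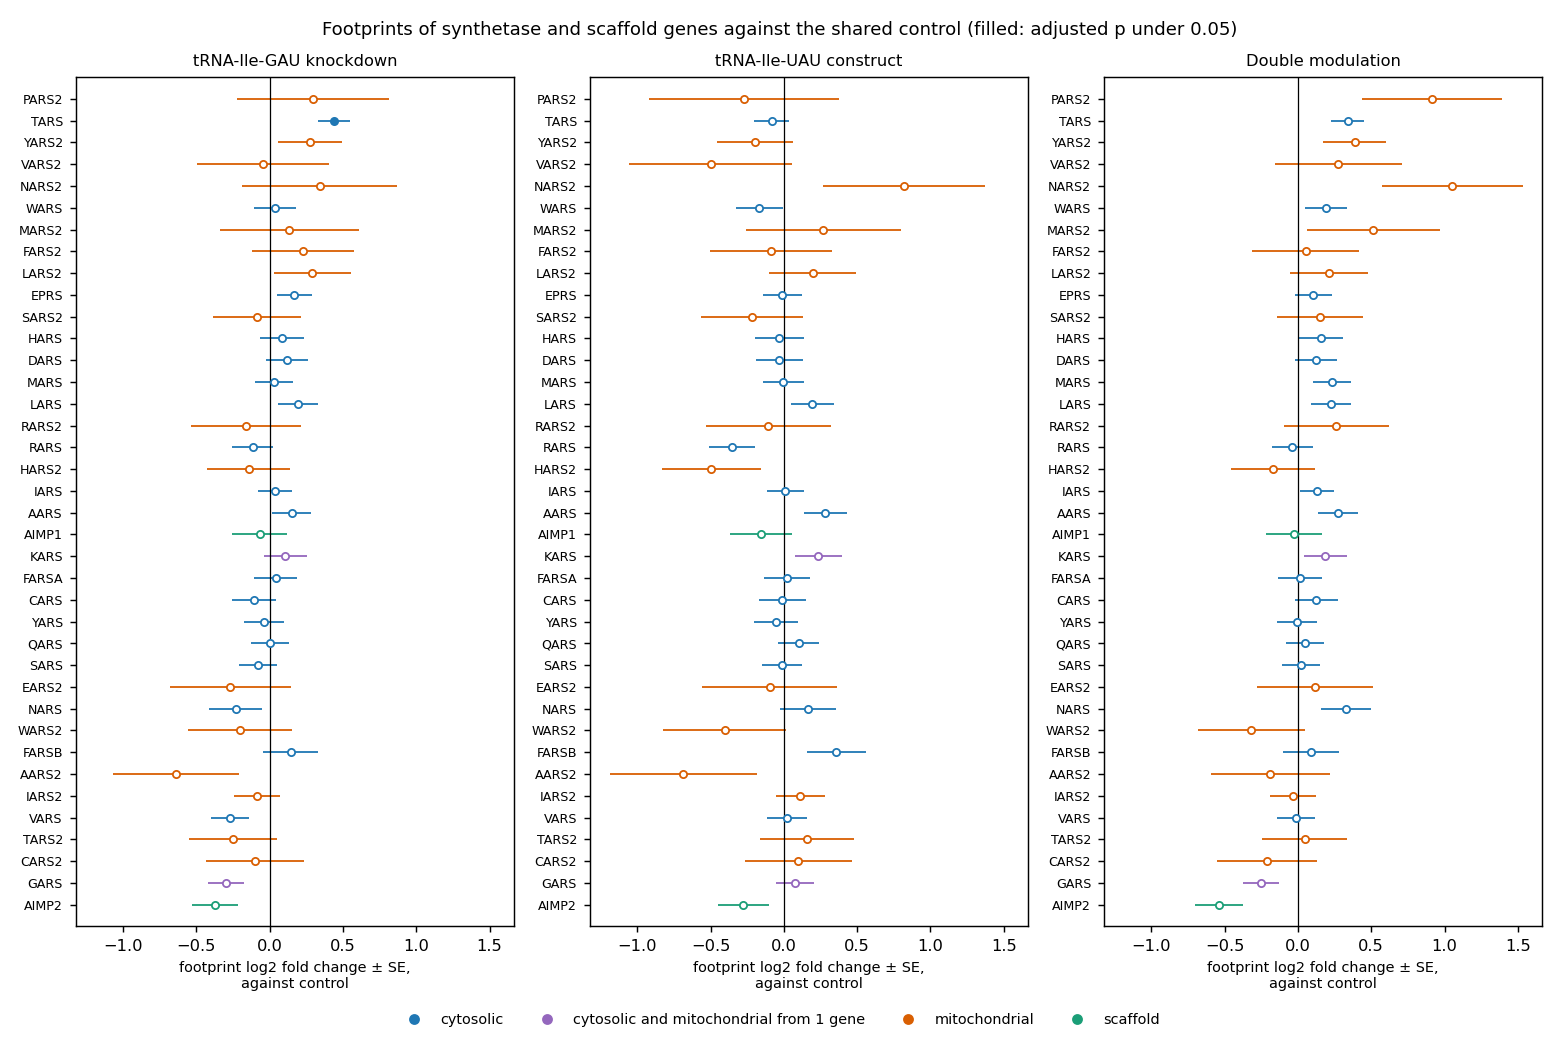
Footprint log2 fold changes ± SE of the 38 tested genes against the same 2 control libraries, for the knockdown (left), the tRNA-Ile-UAU construct (middle) and the double modulation (right), in the order of the guide plot. TARS in the knockdown (0.44) is the 1 filled point; the wide bars belong to mitochondrial enzymes with few counts.

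With the tRNA-Ile-UAU construct alone, no synthetase or scaffold gene passed in either assay. Of the 38 tested in footprints, 16 had a positive value and 22 a negative one, with a median of -0.01. By edgeR 0 passed, 0 by DESeq2, and 0.0246% of all genes passed by edgeR. Among the 38, 1 had an unadjusted p under 0.05, beside 409 of all 8143 genes. The lowest unadjusted p values belonged to RARS, AARS and FARSB. RARS, the arginyl enzyme, was 181 and 283 CPM with the construct against 347 and 266 CPM in control (-0.36 ± 0.16, adjusted p = 0.884), and the value ran from -0.76 to -0.12 over 15 alternatives. AARS, the alanyl enzyme, was 388 and 326 CPM against 309 and 267 CPM (0.28 ± 0.14, adjusted p = 0.962). In total RNA 30 of 39 genes were positive, with a median of 0.10 against 0.00 over all genes. Of the 39, 0 passed by edgeR or DESeq2 (0% of all genes by edgeR). An unadjusted p under 0.05 was reached by 0 of them and by 233 of all 11720 genes. The interaction of guide and construct, the test of whether the construct difference depends on the guide, also gave 0 of 38 in footprints, where 0.0614% of all genes passed, and 0 of 39 in total RNA, where 0% did, by edgeR and by DESeq2. At an unadjusted p under 0.05 was 1 of these genes in each assay. Over all genes it was 475 of 8143 in footprints and 312 of 11720 in total RNA.

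The phenylalanyl enzyme is built from 2 different subunits, FARSA and FARSB. FARSB total RNA was 59.3 and 59.5 CPM in control, 48.3 and 49.7 CPM with the construct, 42.6 and 45.7 CPM in the knockdown, and 49.4 and 57.3 CPM in the double modulation. Control was the highest group, and the knockdown difference was -0.42 ± 0.14 (edgeR adjusted p = 0.558). FARSB footprints were on average lowest in control, at 115 and 90.8 CPM in control, 131 and 134 CPM with the construct, 114 and 115 CPM in the knockdown, and 101 and 124 CPM in the double modulation. The difference of the footprint and total RNA log2 values of FARSB was 0.62 ± 0.23 with the construct and 0.56 ± 0.22 in the knockdown, both at an edgeR adjusted p of 1.00. FARSA footprints were 202 to 253 CPM in all 8 libraries.

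The mitochondrial enzymes were measured with less precision. Mean footprint levels ran from 14.3 CPM (PARS2) to 195 CPM (IARS2), and 1 count was worth 1.07 to 2.79 CPM. By guide 10 of the 16 had a positive footprint value (median 0.12) and 0 passed by edgeR. Among the 16, 1 had an unadjusted p under 0.05, beside 1089 of all 8143 genes. The prolyl enzyme PARS2 had the highest value, 0.74 ± 0.38 (adjusted p = 0.374), from 3 to 21 counts per library. The asparaginyl enzyme NARS2 had the highest value in the double modulation, 1.05 ± 0.48 (adjusted p = 0.340), with 11 and 2 counts in the control libraries and 25 and 11 in the double modulation. Over 13 alternatives that value ran from 0.31 to 2.70. The alanyl enzyme AARS2 had the lowest in the knockdown, -0.64 ± 0.43 (adjusted p = 0.680), with 10 and 14 counts against 14 and 13. Summed footprints of the 16 mitochondrial genes were 567 to 661 CPM with the eGFP guide and 616 to 701 CPM with the tRNA-Ile-GAU guide, which overlap. Both double modulation libraries (684 and 701 CPM) were above every other library, a difference that was not tested.

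Translational efficiency, the footprint change beyond the total RNA change, passed for 0 of 38 genes in each comparison by edgeR, and for 0 of all 8012 genes tested (0% in each). At an unadjusted p under 0.05 were 1 of the 38 in the knockdown, 1 with the construct, 0 in the double modulation and 0 by guide, of 262, 220, 332 and 375 genes in all. DESeq2 called 0 genes in these 4 comparisons. VARS had the largest negative value of the cytosolic enzymes in the double modulation, -0.48 ± 0.28 (adjusted p = 0.949). That value rests on 1 total RNA library: VARS total RNA was 118 CPM in double modulation replicate 1 and 60.3 CPM in replicate 2, against 61.7 to 75.5 CPM in the other 6. Without total RNA double modulation replicate 2 it was -0.81 (adjusted p = 0.00176, with 7.54% of all genes passing), and without replicate 1 it was 0.02 (adjusted p = 0.997).

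VARS was not alone in this. In total RNA of the double modulation, 7 of the 37 genes with at least 10 counts in both libraries were over 1.5-fold higher in replicate 1 than in replicate 2 (AARS2, CARS2, FARS2, FARSA, QARS, VARS and VARS2), and 0 were over 1.5-fold higher in replicate 2. The same count over all genes was not made, so the gap is not read as particular to these genes. This pair also correlated least across all genes in total RNA (r = 0.958). In the other 7 pairs of libraries 0 to 3 genes passed the 1.5-fold limit in each single direction. The total RNA knockdown pair had 3 genes higher in replicate 1 and 2 higher in replicate 2. The footprint construct pair had 1 and 3. FARSA was 46.8 and 27.2 CPM, QARS 81.7 and 52.7 CPM and VARS2 29.2 and 14.9 CPM in the 2 libraries. LARS, at 412 and 523 CPM, and EPRS, at 489 and 603 CPM, differed the other way. Left without replicate 1, AARS, LARS and TARS passed in total RNA of the double modulation, where 2.41% of all genes did. Left without replicate 2, AIMP2, GARS, IARS2, SARS2, TARS, VARS and VARS2 passed, where 15.7% of all genes did, so 7 of 39 is near the background. TARS was the 1 gene in both lists.

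Across the 4 conditions together, the ratio of footprints to total RNA differed widely between the genes. It was positive on the log2 scale for 25 of 38, with a median of 0.24 against -0.03 over all genes, and 29 of 38 passed against 86.8% of all genes tested. The ratio also depends on how much of a transcript is coding, which was not measured, so it is a level of these libraries and not a rate. The highest values were 2.62 ± 0.10 for FARSA, 2.54 ± 0.19 for FARS2, the mitochondrial phenylalanyl enzyme, and 2.5 ± 0.27 for SARS2, the mitochondrial seryl enzyme. Total RNA counts behind them were 68 to 255 per library for FARSA, 8 to 27 for FARS2 and 9 to 65 for SARS2. The lowest were -0.95 ± 0.16 for EARS2, the mitochondrial glutamyl enzyme, -0.79 ± 0.08 for IARS2 and -0.68 ± 0.08 for LARS.

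The isoleucyl enzymes both lay on the low side. IARS had a ratio of -0.47 ± 0.06, and 39.3% of tested genes were lower, while 31.1% were lower than IARS2. TARS (0.13 ± 0.06), KARS (0.08 ± 0.06), GARS (0.01 ± 0.07) and DARS (0.01 ± 0.07) sat near 0. QARS (2.21 ± 0.09), VARS (2.16 ± 0.10), PARS2 (2.14 ± 0.31) and AIMP2 (1.93 ± 0.08) followed the top 3. FARSA, FARS2, QARS and VARS, high in this ratio, are also among the 7 genes whose total RNA differed over 1.5-fold between the double modulation libraries. Whether the ratio and this difference go together, here or over all genes, was not tested. The rest of those 7 were CARS2 at 1.39 ± 0.16, AARS2 at -0.01 ± 0.18 and VARS2 at -0.36 ± 0.21.

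**Figure D4:**
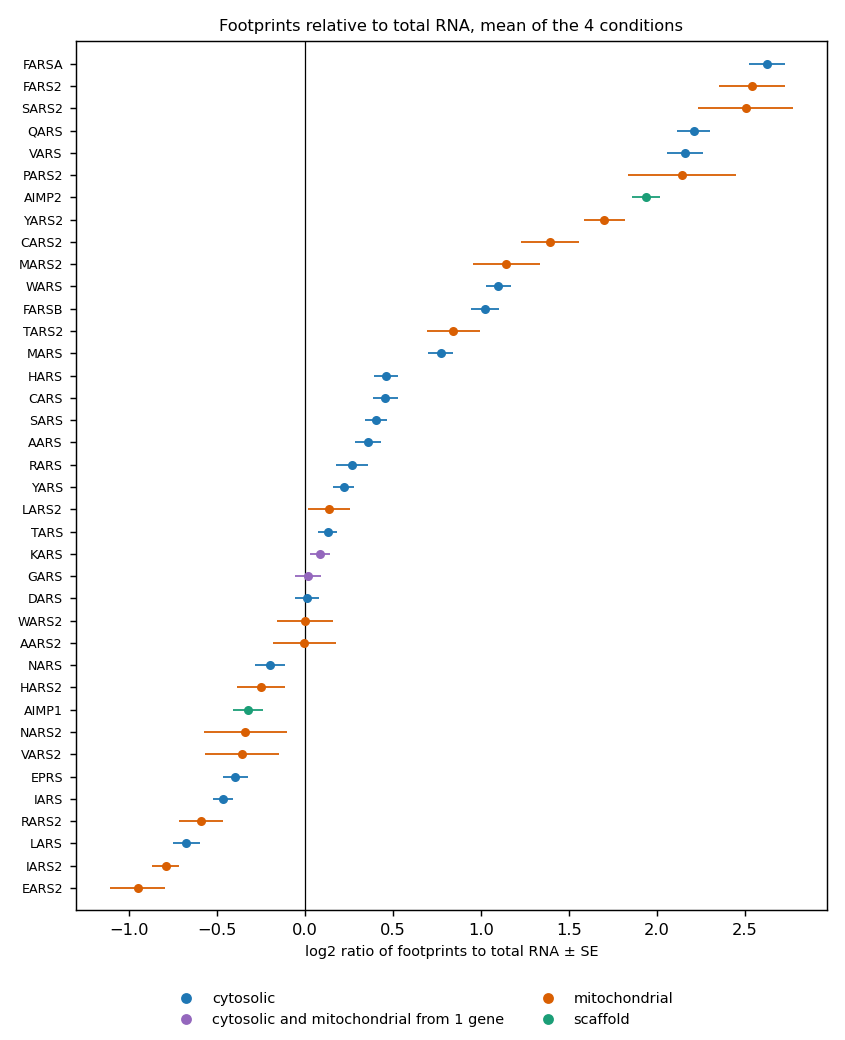
Log2 ratio of footprints to total RNA ± SE (average over the 4 conditions, 16 libraries) for the 38 tested genes, sorted and coloured by class. Values run from -0.95 (EARS2) to 2.62 (FARSA), with IARS (-0.47) and IARS2 (-0.79) among the lower ones and the cytosolic and mitochondrial classes interleaved.

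Genes around the synthetases were read from lists written from general knowledge. Of 30 listed genes of the amino acid response other than synthetases, 21 were tested in footprints. In the knockdown 2 fell and 0 rose, against 0.651 and 0.454% of all genes. In the double modulation 0 passed by edgeR (median 0.09), against 1.93% of all genes. An unadjusted p under 0.05 was reached there by 7 of the 21 and by 972 of all 8143 genes. The 2 that fell form 1 transporter of large neutral amino acids, isoleucine among them. Footprints of SLC7A5, its transport chain, were 384 and 337 CPM in the knockdown against 484 and 490.1 CPM in control (-0.44 ± 0.12, adjusted p = 0.0436). Those of SLC3A2, its partner chain, were 701 and 691 CPM against 883 and 929 CPM (-0.39 ± 0.11, adjusted p = 0.0464). In both, the libraries of the conditions did not overlap, and double modulation libraries lay lower than control too, at 419.6 and 388 CPM for SLC7A5 and 788 and 713 CPM for SLC3A2. Each knockdown call held in only 6 of 15 alternatives, though in the same direction in all. For SLC7A5 and SLC3A2 it was lost by DESeq2 (adjusted p = 0.130 and 0.0818), with no filter (0.0838 and 0.0778), after thinning (0.0910 and 0.243) and without any 1 of the control, construct or knockdown libraries (up to 0.442 and 0.461). Neither passed in the double modulation (adjusted p = 0.301 and 0.203). Total RNA differed by 0.00 ± 0.18 for SLC7A5 and -0.14 ± 0.20 for SLC3A2 in the knockdown. By guide SLC3A2 fell (-0.27 ± 0.08, adjusted p = 0.0371), a call kept in 4 of 14 alternatives and lost by DESeq2 (adjusted p = 0.189), with no filter (0.0679), after thinning (0.0652) and without any 1 of 7 libraries (up to 0.329).

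With guides pooled DDIT4, an inhibitor of mTOR signalling, had a total RNA log2 value of -0.51 with the construct, which did not pass. In footprints it was 1 gene of that list that fell with the construct (-0.46 ± 0.10, adjusted p = 0.00780), where 0.43% of all genes passed. That call was lost in 6 of 14 alternatives. They were DESeq2 (adjusted p = 0.422), thinning (0.253), and leaving out control replicate 1 (0.0777) or 2 (0.143), knockdown replicate 1 (0.282) or construct replicate 2, without which the value was -0.28 (0.637).

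Of 17 charging partners outside the 39 (elongation factors that carry charged tRNA, their exchange factors and enzymes that finish charging), 13 were tested in footprints, and in the double modulation 1 rose and 1 fell, against 0.528 and 1.4% of all genes. EEF1A2, an elongation factor that delivers charged tRNA to the ribosome, was 58.6 and 78.2 CPM against 109 and 147 CPM in control (-0.95 ± 0.20, adjusted p = 0.00141). The call was lost without control replicate 2 (-0.71, adjusted p = 0.283) or double modulation replicate 1 (-0.71, adjusted p = 0.133). It also fell by guide (-0.82 ± 0.14, adjusted p = 1.09e-05), a call kept in all 14 alternatives. Total RNA of EEF1A2 was also lower, at -0.63 in the double modulation and -0.43 by guide on the log2 scale, and neither passed. EEF1G, a subunit of its exchange factor, rose in footprints of the double modulation to 255 and 264 CPM from 181 and 140.3 CPM (0.67 ± 0.16, adjusted p = 0.00477), but was 93.0 and 128 CPM in the knockdown. Its call in the double modulation was lost by DESeq2 (adjusted p = 0.0693) and without control replicate 2 (0.50). With guides pooled EEF1G footprints also rose with the construct (0.73), where 0.43% of all genes passed. That call was kept in 13 of 14 alternatives and lost without construct replicate 2 (0.62). Both genes have close copies elsewhere in the genome, and multiply aligned reads are absent from the counts, which makes these levels uncertain. Of 16 genes for isoleucine uptake and breakdown, 12 were tested in footprints, and SLC7A5 and SLC3A2 were the 2 that passed in the knockdown, against 1.11% of all genes. In total RNA the 1 that passed by guide was DLD, a shared subunit of the branched-chain keto acid dehydrogenase, which fell by 0.51 ± 0.09 (adjusted p = 0.0350, where 1.08% of all genes passed) and lies on chromosome 7. The DLD call was lost with the replicate block (adjusted p = 0.0526) and without any 1 of the control, construct or knockdown libraries (0.160 to 0.204), 7 of 13 alternatives.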

How the data were processed

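Footprints and total RNA of MDA-MB-231 cells fell into 8 groups of 2 libraries by the assay, guide target and construct in their titles. The authors deposited raw counts of reads per gene symbol, per the file headers and values. The submitters' processing notes name cutadapt 1.17, STAR 2.5.2a, HTSeq and the build hg38. Their order and settings, the annotation and the strand are not given in the sources used here. A gene missing from a footprint file was given a count of 0, and the 5 HTSeq summary lines per file stayed out of all totals. Alignments to several places, 97.0 to 98.8% of footprint and 97.2 to 98.1% of total RNA alignments, were not counted on genes, so members with near copies are measured by unique reads.

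CPM is the count divided by all counts on genes of the library, scaled to a common total. Tests used edgeR 4.0.16 in R 4.3.3: filterByExpr (minimum count 10, minimum total 15, by group), TMM factors, and the quasi-likelihood test on group means with all 8 libraries of an assay (4 residual degrees of freedom). Translational efficiency, tested on genes that passed the filter in both assays, was the difference of their contrasts in 1 fit of 16 libraries, with 8 residual degrees of freedom. Benjamini-Hochberg adjustment ran over all genes tested, with a threshold of 0.05. Errors beside log2 values are standard errors and those beside CPM are standard deviations. The biological coefficient of variation was 6.71% in footprints and 14.3% in total RNA. The scripts were tested on simulated data. Positions and promoters are those of RefSeq GRCh38.p14, where 20 of the 39 symbols matched as current and 19 as older names.

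Comparisons were the knockdown, the construct and the double modulation, each against the same control libraries, the guide with constructs pooled, the construct with guides pooled, and the interaction of both, in which 0 of the 39 genes passed in either assay by edgeR. The members, the lists and the tests were chosen with earlier results of these data known. Genes to be named in full were IARS and IARS2, those that passed, the 3 with the lowest p per comparison, the extremes of the footprint to RNA ratio and those on chromosome 7. This rule was not followed throughout. SARS, among the lowest 3 for total RNA with the construct, and several translational efficiency values of other genes are not given. TARS2, TARSL2 and DARS are outside the rule. EPRS, KARS, NARS, PARS2, QARS and the 7 genes that differed between the double modulation libraries were named after their values were seen. Levels per length and isoleucine content were planned but not run, since no protein or coding length table was used here. Alternatives were another normalization (RLE), DESeq2 1.42.0, no filter, thinning, a replicate block, scaling without chromosome 7, fits of only the 2 groups compared, and leaving out each library.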

Additional observations from a re-analysis of the deposited data

How the results depend on the processing

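No alternative changed the direction of TARS, GARS or AIMP2 in footprints or total RNA in the knockdown, the double modulation or the guide comparison. The directions of their other comparisons are not summarized here, apart from translational efficiency by guide, given below for GARS and TARS. The footprint count in the knockdown (1 of 38) became 0 by DESeq2 and after thinning to the shallowest library, and ran from 0 to 1 as single libraries were left out. In the double modulation the footprint count (0) became 1 (AIMP2) with the replicate block and with scaling factors without chromosome 7. By guide the footprint count (2) became 1 by DESeq2, with no filter and after thinning, and ran from 1 to 2 without single libraries. In total RNA the knockdown count (0) became 1 with no filter, 2 in fits of only the 2 groups compared, and 0 to 2 without single libraries. The double modulation count (0) became 1 by DESeq2 and with no filter, and 0 to 7 without single libraries. The guide count (0) became 2 by DESeq2 and with no filter, and 0 to 6 without single libraries. The highest counts, 7 and 6, came without double modulation replicate 2, when 1837 and 1811 of all 11720 genes passed, against 8 and 126 with all libraries. The construct count with guides pooled ran from 0 to 1, and translational efficiency in the double modulation and by guide from 0 to 1 (VARS). Shares of all genes moved with the setting too. In footprints of the knockdown 1.11% became 0.282% by DESeq2 and 0.539% after thinning. By guide 2.68% became 0.774, 1.35 and 1.44% by DESeq2, with no filter and after thinning. In total RNA of the knockdown 0.0256% became 0.538% with no filter and 2.21% with only the 2 groups. In the double modulation 0.0683% became 0.299% by DESeq2 and 1.01% with no filter, and by guide 1.08% became 1.35 and 2.64%. Why these counts and shares differ was not tested.

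Leaving out single libraries turned the sign of some small log2 values. IARS ran from -0.034 to 0.052 in footprints with the construct, from -0.057 to 0.12 in footprints of the knockdown, and in total RNA from -0.035 to 0.12 with the construct, -0.085 to 0.13 in the double modulation and -0.080 to 0.024 by guide. IARS2 ran in footprints from -0.037 to 0.28 with the construct, -0.31 to 0.11 in the knockdown and -0.19 to 0.13 in the double modulation, while its construct difference in total RNA ran from -0.088 to 0.012. Translational efficiency by guide ran from -0.020 to 0.20 for GARS and -0.024 to 0.13 for TARS, and that of VARS in the double modulation from -0.81 to 0.020.

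Libraries of equal number were not treated as paired in the main fits, and the labels do not say whether they are. Their deviations correlated at -0.04 to 0.06 in footprints and -0.42 to 0.36 in total RNA. With the replicate block AIMP2 footprints in the double modulation were -0.54 (adjusted p = 0.0370). The planned levels per coding length and isoleucine content, with its alternative, were not run. TARSL2 and several mitochondrial enzymes had under 20 footprint counts in some libraries, which limits their precision.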
